A study of Saccharomyces cerevisiae with 2 samples.

Results

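The small heat shock proteins and disaggregases of budding yeast, Saccharomyces cerevisiae, are described here by 4 genes out of the 6868 features of the arrays: HSP26 (YBR072W), HSP42 (YDR171W), HSP104 (YLL026W) and HSP78 (YDR258C). They were chosen by systematic name, and all 4 were found. The series compared transcript abundance in salt-stressed and unstressed cells on 2 arrays, 1 for each time. Every culture was strain BY4742, a haploid laboratory strain, with the genotype WT his3kan, and grew at 30 °C in synthetic complete medium. The stressed cells had been in 0.7 M NaCl for 30 min on the first array and for 60 min on the second, and the unstressed cells of both arrays carried the same strain and genotype without salt. The his3kan allele is therefore common to every sample. The titles of the samples put the unstressed cells at time 0, so salt and time in culture cannot be told apart within a ratio.

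Small heat shock proteins are ATP-independent chaperones that bind unfolding proteins and keep them in a form from which they can be refolded. Hsp26 and Hsp42 are the small heat shock proteins of the yeast cytosol. Hsp26 is an assembly that is activated by heat, whereas Hsp42 also acts in unstressed cells and gathers misfolded proteins into cytosolic inclusions. Hsp104 and Hsp78 belong to the Hsp100 (ClpB) family of ring-shaped ATPases, which pull polypeptides out of aggregates together with Hsp70 and its J-domain partners. Hsp104 works in the cytosol and nucleus and is required for acquired thermotolerance and for the propagation of yeast prions, and Hsp78 works in the mitochondrial matrix. In yeast such genes are known to be controlled by the heat shock factor Hsf1 and by Msn2 and Msn4, the factors of the general stress response.

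Each value is the deposited ratio of the 2 channels of an array, read on the log2 scale, so that 1 stands for 2-fold and 0 for no difference. Both arrays have a median of 0 over all features, so a gene called higher is higher than the typical feature of its array. The direction of the ratio was taken as likely stressed over unstressed, because 10 genes known to rise in salt, such as STL1 and GPD1, were all above 0 on both arrays (2.23 to 8.32 on the 30 min array). If the ratio runs the other way, every "higher" and "lower" below swaps. With 1 array per time and no dye swap, no value has a replicate error, no test was possible, and treatment and dye cannot be told apart. Differences are described by their size. A ratio gives no level, so neither the abundance of the transcripts nor the labelled strain could be checked.

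At 30 min all 4 genes were higher in the salt-stressed cells, by 4.34-fold to 19.4-fold. The log base is not stated, and were the values natural logs these folds would be 8.32 and 71.9. The log2 ratio of HSP26 was 4.28 (19.4-fold) and that of HSP42 was 3.81 (14.0-fold). HSP104 had 2.76 (6.77-fold) and HSP78 had 2.12 (4.34-fold). As averages over a culture, these ratios do not tell more cells with the transcript apart from more transcript per cell. The small heat shock protein genes had larger ratios than the disaggregase genes. The share of all features that were at least 2-fold higher at 30 min was 15.8%, and the median over the 4 genes was 3.29. HSP26 ranked 55 from the top among the 6868 features, HSP42 ranked 79, HSP104 ranked 190 and HSP78 ranked 310. The mitochondrial member HSP78 had the smallest ratio of the 4, 1.56-fold below that of its cytosolic relative HSP104.

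At 60 min HSP26 alone among the 4 was at least 2-fold higher, against 6.67% of all features. HSP26 had a log2 ratio of 3.77 (13.7-fold), HSP42 had 0.78 (1.72-fold), HSP104 had 0.75 (1.69-fold) and HSP78 had 0.16 (1.12-fold). All 4 values were positive, and their median was 0.77. HSP26 stood at rank 18 of all features, higher than at 30 min, while HSP42 was at rank 677, HSP104 at 718 and HSP78 at 2439. The count of members past 2-fold depended on the scale of the second array, whose SD over all features was 0.71, the other array having 1.33. After the second array was stretched to the SD of the first, HSP42 had 1.47 and HSP104 had 1.42, so that 3 of the 4 genes passed 2-fold, against 15.7% of all features.

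**Figure D1:**
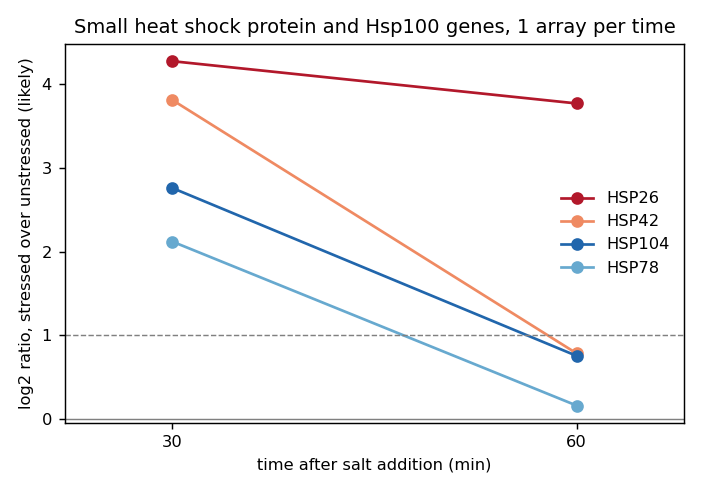
Log2 ratio (vertical axis, likely stressed over unstressed) of HSP26, HSP42, HSP104 and HSP78 at 30 and 60 min after salt addition (horizontal axis), 1 point per array; the solid line marks 0 and the dashed line 2-fold. HSP26 went from 4.28 to 3.77, while the other 3 genes came down to between 0.16 and 0.78.

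The 2 small heat shock protein genes parted between the times. At 30 min the ratio of HSP26 was 1.38-fold that of HSP42, and at 60 min it was 7.93-fold, or 49.2-fold on the stretched array. The 60 min value minus the 30 min value was -0.50 for HSP26, which is 1.42-fold lower at 60 min, and -3.03 for HSP42, which is 8.16-fold lower. The difference of HSP42 was the ninth lowest of the 6868 features, whereas that of HSP26 was matched or undercut by 21.6% of them. On the stretched array the sign for HSP26 turned, to a difference of 2.82, and HSP42 kept a negative difference, -2.34. Stretching multiplies all 60 min values by the same factor, so it can only widen the distance between HSP26 and HSP42 there and is no check on it. Whether HSP26 itself was lower at 60 min than at 30 min depended on the scale. The labels name the unstressed RNA differently on the arrays and do not say whether it came from 1 culture, which bears on every difference between the times.

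The disaggregase genes kept their order, and on the deposited scale also their distance. HSP104 had a difference of -2.01 between the times (4.02-fold lower at 60 min) and HSP78 had -1.96 (3.89-fold lower). The ratio of HSP104 was 1.56-fold that of HSP78 at 30 min and 1.51-fold at 60 min, or 2.17-fold on the stretched array. Between the times, 3 of the 4 genes were lower by 2-fold or more, against 8.85% of all features, and these 3 passed 2-fold on the stretched array too. HSP42 came to lie beside HSP104 at 60 min, their ratios being 2.07-fold apart at 30 min and 1.02-fold apart at 60 min. In terms of the 30 min log2 ratio, 88.2% was left at 60 min for HSP26, 27.3% for HSP104, 20.5% for HSP42 and 7.54% for HSP78. The stretched array gave larger shares, whose order could not change because all were multiplied by the same factor.

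Features with a similar ratio at 30 min give the setting for these changes. This comparison was added after the values were seen. The 46 other features within 0.5 of HSP26 at 30 min had 60 min values from 0.21 to 3.71, with a median of 2.18, and none of them was above HSP26 at 60 min. Of the 74 features within 0.5 of HSP42 at 30 min, whose median at 60 min was 1.98, 70 were above HSP42 at 60 min and 4 were below it. HSP26 and HSP42 thus lay near opposite ends of features that had started alike. For HSP104, 114 of 140 such features were higher at 60 min (median 1.23), and for HSP78, 293 of 321 were higher (median 0.78). Ranks at 60 min among such features do not change when that array is stretched.

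**Figure D2:**
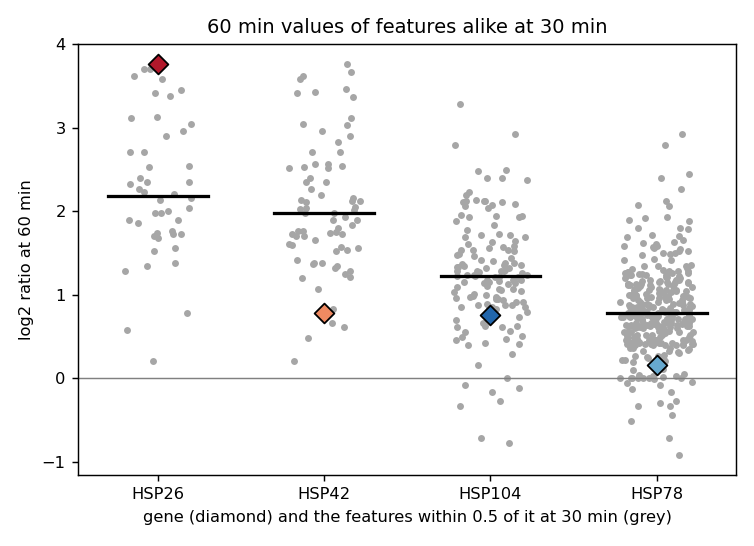
Log2 ratio at 60 min (vertical axis) of each gene (diamond) and of the other features within 0.5 of it at 30 min (grey points, spread sideways for display); the bar is the median of the grey points. HSP26 lies above all 46 grey points of its column, and HSP42, HSP104 and HSP78 lie below the medians of 1.98, 1.23 and 0.78.

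The named genes nearest to each of the 4 were taken by the distance between their pairs of log2 ratios over the 2 arrays. Nearest to HSP26 were GAC1, a regulatory subunit of protein phosphatase 1 that acts in glycogen synthesis, with 4.26 at 30 min and 3.59 at 60 min (distance 0.18), ARO10, a decarboxylase of amino acid catabolism, with 4.63 and 3.70 (0.36), and POT1, the peroxisomal thiolase, with 4.11 and 3.41 (0.40). HSP42 had no neighbour closer than 0.31, which was IGD1, an inhibitor of glycogen debranching, with 3.70 and 1.07. MGA1 followed with 3.49 and 0.66, and AIM26 with 3.63 and 0.48. For HSP104 the nearest was CYC7, the hypoxic isoform of cytochrome c, with 2.80 and 0.83 (0.09), then SAF1, an F-box protein, with 2.68 and 0.70, and MHO1 with 2.82 and 0.88. For HSP78 they were ENA5, a sodium pump gene with near-identical copies, with 2.13 and 0.19 (0.03), TMC1 with 2.17 and 0.22, and MEK1, a meiotic kinase, with 2.11 and 0.26. HSP26 and HSP42 were thus farther from their nearest named gene than HSP104 and HSP78 were, in a part of the range that holds fewer features.

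The disaggregases work with Hsp70, whose genes went both ways at 30 min, in shares near those of all features. Of the 14 genes of the Hsp70 family, 3 were at least 2-fold higher, 3 were 2-fold lower and 8 were neither (median -0.25), against 15.8% of all features higher and 17.3% lower. SSA4, a cytosolic Hsp70 made under stress, had 4.30 at 30 min and 1.70 at 60 min. SSE2, an Hsp110 that acts as nucleotide exchange factor, had 2.97 and 1.60, and SSA3 was the third of those higher, with 2.10 and 1.30. The constitutive cytosolic SSA1 and SSA2 had 0.21 and -0.07 at 30 min, and the lowest values were those of SSB1 and SSB2, the ribosome-bound Hsp70s, with -2.72 and -2.54. The 3 higher genes were still past 2-fold at 60 min, against 6.67% of all features, where HSP104 was at 0.75 on the deposited scale. On that scale 2 of the 14 were at least 2-fold lower at 60 min, SSB1 with -1.36 and SSB2 with -1.40, against 4.32% of all features.

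The genes of the J-domain proteins, which hand clients to Hsp70, went both ways, as all features did. At 30 min 2 of 22 passed 2-fold upwards and 5 downwards (median -0.33), against 15.8% and 17.3% of all features. At 60 min none was higher and 1 was lower, where 6.67% and 4.32% of all features were. Read as natural logs, 4 were higher at 30 min, against 23.2% of all features, and 8 were lower. On the stretched array 4 were lower at 60 min. SIS1, which acts with Hsp104 on prions and aggregates, had 1.18 at 30 min and -0.30 at 60 min, while YDJ1, the major cytosolic J-domain protein, had -1.29 and -0.55. JID1, a mitochondrial J-domain protein, had the highest value of the list, 2.02, and JJJ3 and JJJ1 had the lowest, -3.51 and -2.10. Among the 4 exchange factors outside the Hsp70 family SNL1 was 2-fold lower (-1.33) and the others, SIL1 with 0.12, FES1 with -0.34 and MGE1 with -0.65, were within 2-fold.

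The partners of HSP78 in mitochondrial protein quality control were within 2-fold of 0, as most features were. None of the 11 mitochondrial chaperone and protease genes was 2-fold from 0 at either time (medians -0.19 and -0.19). Of all 6868 features, 4595 at 30 min and 6113 at 60 min were likewise within 2-fold. Values at 30 min ran from -0.65 to 0.80, and 1 gene would be 2-fold higher then were they natural logs. The known partners of Hsp78 are the matrix Hsp70 Ssc1, its J-domain protein Mdj1 and its exchange factor Mge1. SSC1 had -0.60 at 30 min and -0.21 at 60 min, MDJ1 had 0.80 and -0.47, and MGE1 had -0.65 and 0.06. YME1, the protease of the intermembrane space side, had 0.56 and -0.07, and HSP60, the matrix chaperonin, had -0.61 and -0.25. The 2.12 of HSP78 at 30 min therefore lay above all 11 values of this list, and its 0.16 at 60 min lay above them as well, the highest there being 0.09. The list does not hold every mitochondrial chaperone gene. JID1, counted with the J-domain proteins, had 2.02 at 30 min, just below HSP78, and 0.32 at 60 min, above it.

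Other chaperone systems were near or below 0. None of the 14 genes of Hsp90 and its co-chaperones was 2-fold higher at 30 min and 4 were lower (median -0.01), against 17.3% of all features lower; as natural logs 1 was higher. HSP82, the stress-inducible Hsp90, had 0.88 and CDC37, the kinase co-chaperone, had 0.55, while PPT1 and CNS1 had -2.27 and -2.29. All 14 genes of the chaperonin CCT and of prefoldin, which fold actin and tubulin, were negative at both times. Of all 6868 features, 3406 were negative at 30 min and 3400 at 60 min. At 30 min 5 of the 14 were at least 2-fold lower (median -0.58), against 17.3% of all features. At 60 min 3 were, against 4.32%. Values at 30 min ran from CCT2 with -0.26 and CCT8 with -0.28 to GIM4 with -1.57 and PAC10 with -1.78. The chaperone and stress lists together hold 111 genes, of which 33 passed 2-fold upwards and 18 downwards at 30 min, and 25 and 6 at 60 min. Of all features, 15.8% were higher and 17.3% lower at 30 min, and 6.67% and 4.32% at 60 min. The 33 higher genes include all 18 Msn2 and Msn4 targets described below, 4 of which were also used to read the direction. The 18 genes lower at 30 min are a share close to that of all features.

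The genes of the Hsp31 family had high ratios at both times, as HSP26 did. Hsp31 is a glyoxalase and chaperone of the DJ-1 family. HSP31 had 3.47 at 30 min and 3.43 at 60 min. SNO4, HSP32 and HSP33 had 4.51, 4.29 and 4.11 at 30 min and 3.13, 3.12 and 3.05 at 60 min. These last 3 genes are near-identical copies, so their values may be partly shared and do not count as separate measurements.

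The 4 genes were then set beside the other targets of the heat shock factor and beside those of Msn2 and Msn4. Of 18 other chaperone genes known as heat shock factor targets, 4 passed 2-fold upwards and 1 downwards at 30 min (median 0.32). Of all features, 15.8% were higher and 17.3% lower by that size. The higher ones were MBF1, a coactivator, with 1.31, BTN2 with 1.21, SIS1 with 1.18 and CUR1 with 1.14, the last being named after its value was seen. Btn2 and Cur1 are sorting factors that, with Hsp42, direct misfolded proteins to inclusions. At 60 min none of the 18 was 2-fold from 0 on the deposited scale (median -0.15), against 6.67% of all features higher and 4.32% lower. On the stretched array 2 were lower. As deposited, MBF1 was then at 0.30, BTN2 at -0.46 and CUR1 at -0.09. HCH1 and YDJ1 had the lowest values at 30 min, -0.86 and -1.29. All 18 lay below each of HSP26, HSP42, HSP104 and HSP78 at 30 min, and at 60 min 14 lay below HSP78 and all 18 below the other 3 genes. This order depends on which genes the list holds. The stress-induced Hsp70 gene SSA4 was counted with the Msn2 and Msn4 targets and not here. With 4.30 it lay above all 4 genes at 30 min, and with 1.70 at 60 min it lay above all but HSP26.

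Of 18 genes known as Msn2 and Msn4 targets, all were at least 2-fold higher at 30 min (median 3.77) and 16 were so at 60 min (median 1.73). The shares of all features were 15.8% and 6.67%. Of the 18 genes, 4 were also used to read the direction, and of the other 14, all were higher at 30 min (median 3.56) and 12 at 60 min (median 1.65). At 30 min HSP26 and HSP42 lay in the middle of the 18 values, 10 being below HSP26 and 9 below HSP42, and HSP104 and HSP78 lay at the lower end, with 3 and 1 below them. The highest values were those of the aldehyde dehydrogenase gene ALD3, 6.94, and the catalase gene CTT1, 6.40, and the lowest were those of GSY2, glycogen synthase, 2.55, and SOD2, mitochondrial superoxide dismutase, 1.52. At 60 min 16 of the 18 lay below HSP26, 1 lay below HSP42 and below HSP104 and none below HSP78. On the deposited scale none of the 18 fell between the times by as much as HSP42, and 16 fell by more than HSP26. HSP12, which encodes a small membrane-associated stress protein, was slightly higher at 60 min (3.44 and 3.68).

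**Figure D3:**
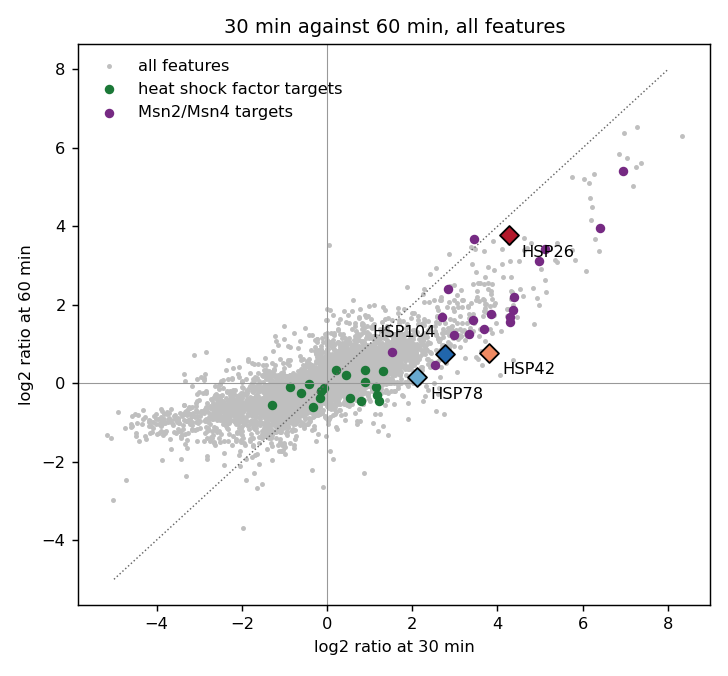
Log2 ratio at 30 min (horizontal axis) against 60 min (vertical axis) for all 6868 features (grey), 18 heat shock factor targets (green), 18 Msn2/Msn4 targets (purple) and the 4 genes (labelled diamonds); equal values would lie on the dotted line. HSP26 lies among the highest features at both times, and HSP42, HSP104 and HSP78 lie in the lower part of the features with like values at 30 min.

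Trehalose is a sugar that stabilises proteins and is known to act with Hsp104 in heat tolerance. All 7 genes of its synthesis and breakdown were at least 2-fold higher at 30 min (median 2.92), against 15.8% of all features. At 60 min 6 of 7 were (median 1.37), against 6.67%. TPS1, TPS2 and TSL1 of this list were already counted among the 18 Msn2 and Msn4 targets. TPS2 and TSL1, of the synthase complex, had 4.37 and 3.84 at 30 min, and the neutral trehalase gene NTH2 had 2.26. TPS3, another subunit of that complex, had 1.94 at 30 min and 0.10 at 60 min. On the deposited scale all 7 were lower by 2-fold or more at 60 min than at 30 min. So were HSP42, HSP104 and HSP78, 15 of the 18 Msn2 and Msn4 targets, and 8.85% of all features.

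The transcripts of the regulators themselves were within 2-fold of 0 at both times on the deposited scale, in 7 of 7 genes (medians 0.44 and -0.13). So were most of the 6868 features, 4595 at 30 min and 6113 at 60 min. Read as natural logs, 2 would be higher and 1 lower at 30 min. HSF1, encoding the heat shock factor, had 0.71 at 30 min and -0.31 at 60 min. MSN2 had 0.62 and 0.43, and MSN4 had 0.44 and 0.42. YAP1, of the oxidative stress response, had 0.91 and 0.17, while HOT1, a factor of osmotic stress, had -0.09 and -0.13 and SKN7 had -0.96 and -0.42.

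**Figure D4:**
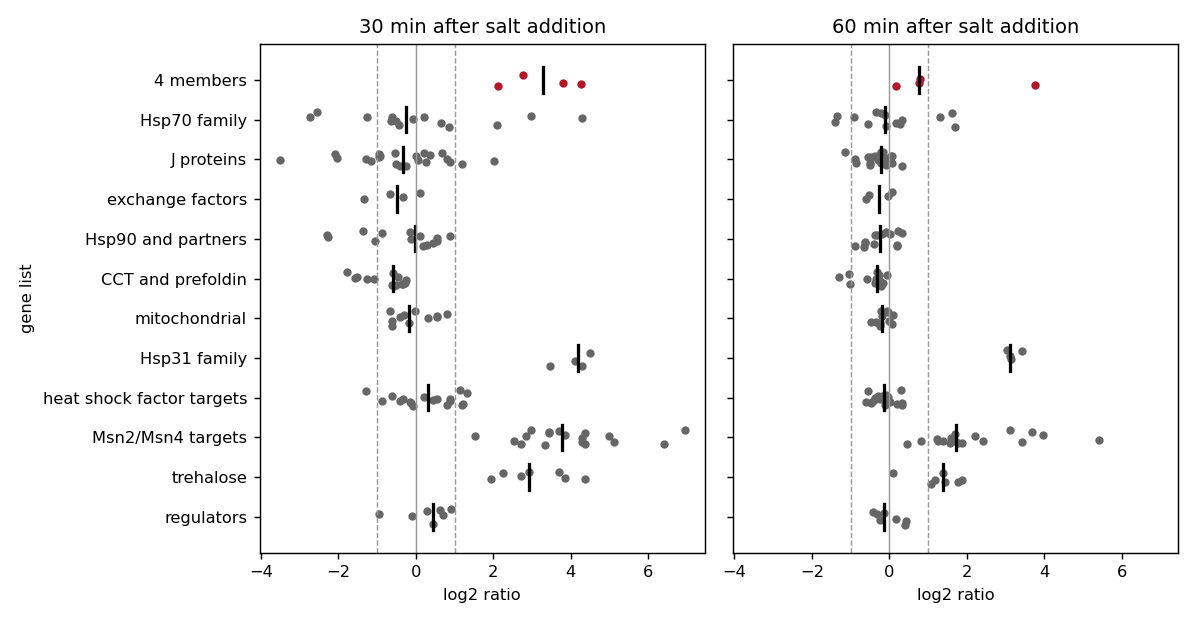
Log2 ratio (horizontal axis) of every gene of each list (rows, 1 point per gene, spread vertically for display) at 30 min (left) and 60 min (right), with the list median as a bar; dashed lines mark 2-fold in each direction. The 4 genes, in red, have a median of 3.29 at 30 min and 0.77 at 60 min, and the heat shock factor targets have medians of 0.32 and -0.15.

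The 4 genes lie on chromosomes II (HSP26), IV (HSP42 and HSP78) and XII (HSP104), and at 30 min the genes next to them in the reference gene table had smaller ratios. HSP26 is flanked by YBR071W, with -1.63 at 30 min and 0.27 at 60 min, and by YBR072C-A, with 0.54 and 0.59. HSP42 lies between YDR170W-A, with -0.54 and -0.25, and SUP35, with -1.12 and -0.42. SUP35 encodes a translation termination factor and is the prion protein whose aggregates Hsp104 is known to fragment. HSP104 is next to ISA1, of iron-sulphur cluster assembly, with 0.14 and 0.27, and on the other side, beyond a transfer RNA gene, to PAU17, with 0.89 and 0.24. HSP78 is next to RKM4, a methyltransferase for ribosomal proteins, with -0.23 and -0.17, and YAP6, a transcription factor, with 0.48 and 0.55, so that at 60 min YAP6 was above HSP78. None of these 8 protein-coding neighbours was 2-fold higher at either time, and 2 of them, YBR071W and SUP35, were 2-fold lower at 30 min. Of all features, 15.8% were 2-fold higher at 30 min and 6.67% at 60 min, and 17.3% were 2-fold lower at 30 min. The coding length in the reference is 645 bases for HSP26, 1128 for HSP42, 2727 for HSP104 and 2436 for HSP78. How many array probes stand behind each value is not known here.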

How the data were processed

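Transcript abundance was measured on 2-colour NimbleGen tiling arrays, the stressed and unstressed cells of an array carrying different dyes, per the labels. The authors deposited 1 value per feature and array, read here as log2 ratios from their sign and range (-5.16 to 8.32). For the log base, the direction, the normalization, the genome build and the combining of probes, the sources used here give no statement. By locus tag, 5984 of 6868 features were found in RefSeq (assembly R64), and 5267 got a symbol from it. Counts, medians, ranks and distances were computed with Python 3.11.15 and pandas 2.3.3, and the ranking, counting and distance steps were tested on shuffled values with planted features. Calls are by size, at least 2-fold. Exactly 0 stood in 63 features at 30 min and 75 at 60 min, none of them in the lists. All 117 symbols of the 12 lists matched. The 4 genes and the lists were chosen with earlier results of these data known. The genes named are the 4, their 3 nearest named genes, the 2 highest and 2 lowest of each list at 30 min and the flanking genes; others were chosen after their values were seen or as known partners. Planned searches of promoters and proteins were not run, and no sequence was used here. The number of arrays limits the precision.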

Additional observations from a re-analysis of the deposited data

Results flagged for a closer look

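Some results beside the 4 genes had opposite signs at 30 and 60 min, with 1 array each, and the difference between the times was not tested. The median of the heat shock factor targets went from 0.32 to -0.15 (60 min minus 30 min -0.47) and that of the regulators from 0.44 to -0.13 (-0.57). Of single genes, SIS1 went from 1.18 to -0.30 (-1.49), BTN2 from 1.21 to -0.46 (-1.67), CUR1 from 1.14 to -0.09 (-1.23), MDJ1 from 0.80 to -0.47 (-1.26), HSF1 from 0.71 to -0.31 (-1.02), YME1 from 0.56 to -0.07 (-0.63) and SIL1 from 0.12 to -0.03 (-0.15). In the other direction, MGE1 went from -0.65 to 0.06 (0.71) and YBR071W, next to HSP26, from -1.63 to 0.27 (1.90). HSP26, HSP42, HSP104 and HSP78 were positive at both times.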

How the results depend on the processing

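Of 55 comparisons of the main values and counts with an alternative setting, 46 kept their direction and their side of 2-fold or stayed within 1.5 times the count. Part of this was fixed in advance, since reading values as natural logs cannot turn a sign or bring a value back within 2-fold. The 46 include the members lower at 60 min than at 30 min, which numbered 3 as deposited and 2 with a 4-fold threshold. With the 60 min array rescaled to the SD of the 30 min array, the 60 min minus 30 min difference of HSP26 reversed to 2.82, HSP42 at 60 min passed 2-fold with 1.47 and HSP104 with 1.42, and the members past 2-fold at 60 min numbered 3. Read as natural logs, HSP42 had 1.13 and HSP104 1.09 at 60 min, again 3 members. A 1.5-fold threshold also gave 3, and a 4-fold threshold left 11 of the 25 list genes past it at 60 min. The share of all features at least 2-fold higher at 60 min was 6.67% as deposited, 15.7% rescaled and 11.7% as natural logs. The share at least 2-fold lower at 60 min than at 30 min was 8.85%, 6.57% and 15.0% in that order. Centring on the mean changed none of these calls. Of 236 comparisons for single lists and shares, 183 stayed within 1.5 times. No paired analysis was possible because each time has 1 array. With no replicates, no replicate could be left out.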
